A study of Caenorhabditis elegans with 2 samples.

Results

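The genes of the DAF-12 steroid hormone pathway were examined for regions listed after chromatin immunoprecipitation of MADF-10, a worm protein with a MADF domain, in Caenorhabditis elegans. The 6 genes, of 19985 annotated protein-coding genes, were daf-12, din-1, daf-9, daf-36, dhs-16 and strm-1. They were chosen by name with measured values of these region lists already known, among them the signals at daf-12 and din-1. Counts and ranks at these genes are therefore given as a description, with no test.

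Chromatin immunoprecipitation followed by sequencing was carried out on whole young adult hermaphrodites of strain OP508, whose genotype is unc-119(tm4063) III; wgIs508. The worms stably express MADF-10 with a C-terminal GFP-FLAG tag from an integrated transgene, and chromatin was precipitated with an antibody against GFP. They were collected 68 h after synchronisation by starving L1 larvae that had hatched from bleached adults. Both libraries, biological replicates 1 and 2, come from this 1 strain and stage, so no other genotype, stage or untagged worm stands beside them. Whole worms were used, so the tissue from which the signal of a region came cannot be told apart from any other.

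DAF-12 is a nuclear receptor whose ligands, the dafachronic acids, are steroids made from dietary cholesterol. With ligand it promotes reproductive growth and the later larval programmes. Without ligand it binds the corepressor DIN-1, a relative of the SHARP and SPEN proteins of mammals, and the larva can enter the long-lived dauer stage. DIN-1 is known in a long and a short form, and the short form is the one tied to dauer formation. The Rieske oxygenase DAF-36, the short-chain dehydrogenase DHS-16 and the cytochrome P450 DAF-9 act in the synthesis of the ligands. STRM-1 is a sterol methyltransferase that alters sterols so that they cannot serve as precursors.

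A gene was counted where a region of a list overlapped it, or the 2000 bp upstream of its outermost annotated start, by at least 1 bp. Each region has a summit and the authors' signal, and rank 1 is the highest signal of a list. A region with more than 1 summit fills 1 entry for each summit. The authors' reproducible list holds 1869 entries of the 30000 in the list pooled from both replicates, namely those with the highest signal, down to 92.3. The pooled list is labelled by the authors as peaks and background. An entry of it outside the reproducible list may therefore be background, and is not by itself an occupied site. Replicate 1 had 25924 entries with a median signal of 10.8, replicate 2 had 30000 with a median of 17.9, and the pooled median was 23.3. Signals are compared within a list, or after division by the median of their own list. The sources used here do not give the number of reads.

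Reproducible peaks were found at the receptor gene daf-12 and at the corepressor gene din-1, and at none of the 4 genes of sterol and steroid metabolism. Among all protein-coding genes, 10.5% had a reproducible peak under this rule. The pair of genes with peaks are long, with windows of 32.97 kb for daf-12 and 20.8 kb for din-1, and of the 263 genes with windows of at least 20 kb 24.0% had a reproducible peak. Both genes had more than 1 reproducible entry, 2 at daf-12, which are summits of 1 region, and 3 at din-1. Of all genes, whatever their length, 1.58% had 2 or more, and that share is not given for long windows alone. The rule used these signals, so nothing is read from the difference between 2 of 6 genes and the share of all genes.

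The DNA under the 5 reproducible summits is printed here because it is where the signal of these genes was highest. Each run is from WBcel235, the assembly behind ce11, is read 5′ to 3′ on the strand of the gene, and reaches 50 bp to either side of the pooled summit. The capital marks the summit base. The run at the internal start of din-1 ends 1 base before that start, and the 43 bases of the transcript are left out.
daf-12, first intron, stronger summit, chrX:10637452-10637552, plus strand: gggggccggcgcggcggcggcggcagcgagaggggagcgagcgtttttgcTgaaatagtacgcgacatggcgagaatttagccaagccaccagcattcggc
daf-12, first intron, weaker summit, chrX:10637658-10637758, plus strand: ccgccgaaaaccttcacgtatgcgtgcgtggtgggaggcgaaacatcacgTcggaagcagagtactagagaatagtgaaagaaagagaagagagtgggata
din-1, internal start, chrII:11620079-11620136, minus strand: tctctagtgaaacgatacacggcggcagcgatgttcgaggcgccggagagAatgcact
din-1, upstream, nearer peak, chrII:11634290-11634390, minus strand: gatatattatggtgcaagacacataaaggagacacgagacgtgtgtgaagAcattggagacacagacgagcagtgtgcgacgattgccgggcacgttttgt
din-1, upstream, farther peak, chrII:11635127-11635227, minus strand: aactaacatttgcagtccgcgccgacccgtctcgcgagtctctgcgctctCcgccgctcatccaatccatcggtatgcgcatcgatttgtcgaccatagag

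The strongest region at any of the 6 genes lay inside din-1 (WBGene00008549, chromosome II, 11614770 to 11633609, minus strand). It ran from 11619768 to 11620452 with its main summit at 11620086. It had a pooled signal of 1164 (rank 34), with 398 in replicate 1 (rank 33) and 766 in replicate 2 (rank 35). Both replicates thus placed it at nearly the same rank near the top of their lists. Divided by the median of its own list, the signal was 39.8 ± 4.24 (SD, n = 2).

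This summit lay at an internal start of din-1 rather than at the outer one. The gene has 7 annotated transcripts with 6 different starts, and the summit was 13523 bp downstream of the outermost start. It was 8 bp upstream of the start of transcript F07A11.6d.1 at 11620078, which has 5 exons. The summits of the replicates fell at 11620077 and 11620080, that is 1 bp downstream and 2 bp upstream of that start. For the transcripts a, b, c, e and f the same position is inside an intron of 4003 bp, so the peak lies in the body of the longer forms and next to the start of a shorter one. Of all reproducible summits 1.61% lay within 10 bp of an annotated start of a protein-coding transcript, against 1.01% of all pooled summits.

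Non-coding genes are annotated at the same place on the opposite strand. The summit was inside the snoRNA gene F07A11.15 (11620025 to 11620295, plus strand), 61 bp into it, and inside the ncRNA gene F07A11.10 (11619929 to 11620215, plus strand). snoRNAs are short nucleolar RNAs that guide the modification of other RNAs. In all, 13 reproducible summits (0.696%) lay inside a snoRNA gene. ChIP signal has no strand, so a peak of din-1 and a peak of the snoRNA gene cannot be told apart here.

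The same region had a lower summit at 11620300, just past the end of the snoRNA gene. Its pooled signal was 77.9 at rank 2423, below the lowest reproducible signal. In replicate 1 it had a signal of 95.9 at rank 195, and in replicate 2 a signal of 44.4 at rank 3427. The main summit therefore kept its rank between the replicates, and the lower one did not.

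**Figure D1:**
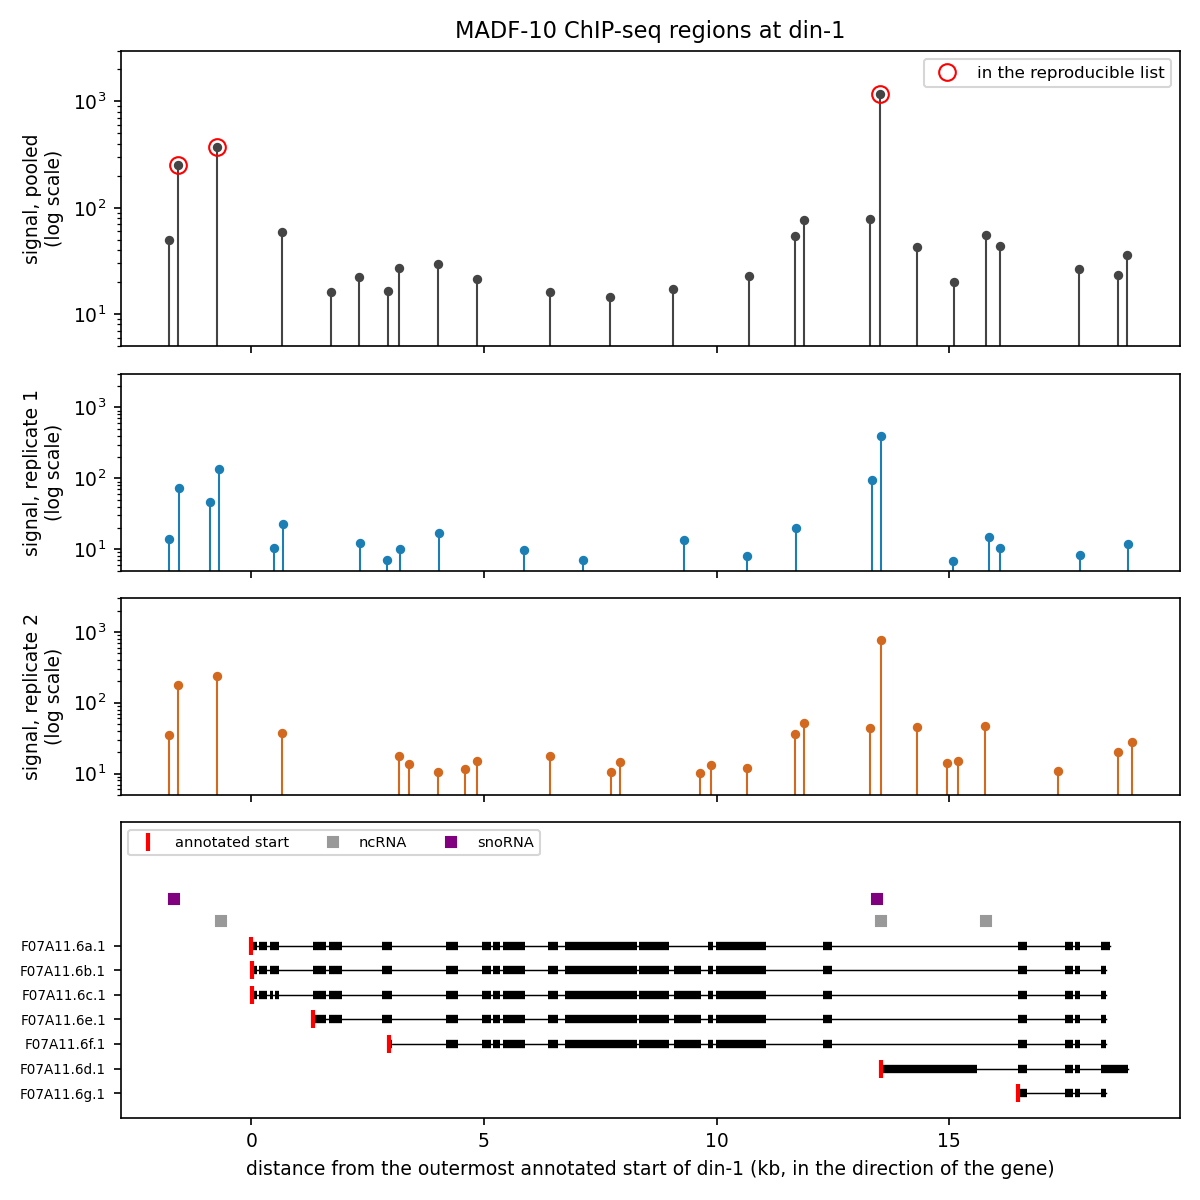
Signal of each region at din-1 (log scale, one panel per list) against the distance of its summit from the outermost annotated start in kb. The lowest panel shows exons as black boxes, annotated starts as red ticks and nearby non-coding genes as squares. The tallest line in each list stands at the start of transcript F07A11.6d.1, 13523 bp into the gene, and red circles mark the 3 reproducible entries.

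Another pair of reproducible peaks lay upstream of din-1. The nearer one covered 11634135 to 11634540, and its summit at 11634340 was 731 bp before the outermost start. The pooled signal was 375 (rank 116), that of replicate 1 was 136 (rank 99) and that of replicate 2 was 239.9 (rank 134). Over the list medians that is 13.0 ± 0.576 (SD, n = 2), the smallest spread of the 5 reproducible entries. Its summit was 6 bp from the start of the ncRNA gene ZK20.8 (11634196 to 11634334, minus strand).

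The farther one covered 11635011 to 11635320, and its summit at 11635177 was 1568 bp before that start. The pooled signal was 251 (rank 253), that of replicate 1 was 73.6 (rank 340) and that of replicate 2 was 176 (rank 234), or 8.32 ± 2.16 (SD, n = 2) over the list medians. It was 48 bp from the start of the snoRNA gene ZK20.9 (11635225 to 11635327, plus strand). No protein-coding gene other than din-1 had its body or its start nearer to either of these summits.

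All 3 reproducible entries at din-1 thus lay within 200 bp of an annotated non-coding gene, and 2 of them within 200 bp of a snoRNA gene. Of all 1869 reproducible entries 33.1% lay that near to a non-coding gene of any class and 4.17% to a snoRNA gene. In the pooled list the shares were 8.88% and 0.69%, and in its lower 50% by signal 5.53% and 0.38%. Neither of the 2 reproducible entries at daf-12 lay within 200 bp of a non-coding gene. With 3 and 2 entries these counts describe the loci and are no estimate of a share, and the part of the non-coding genes in the din-1 peaks was not tested.

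At daf-12 (WBGene00000908, chromosome X, 10635908 to 10666875, plus strand) the strong signal was in the first intron. One region from 10637250 to 10637818 had a pair of summits. The stronger summit, at 10637502, had a pooled signal of 749 (rank 44), with 268 in replicate 1 (rank 43) and 493 in replicate 2 (rank 46). This was 26.1 ± 1.99 (SD, n = 2) over the list medians, beside 39.8 ± 4.24 (SD, n = 2) at the internal din-1 peak.

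Both summits lay 1594 and 1800 bp downstream of the outermost start, in an intron of 8353 bp that belongs to transcript F11A1.3e.3 alone. The gene has 10 annotated transcripts with 9 different starts, and the next start, shared by F11A1.3e.1 and F11A1.3g.1, is at 10644409. RefSeq places the outer end of daf-12 at that position. Under the RefSeq span the stronger summit lies 6907 bp upstream of the gene and daf-12 has 0 reproducible entries and 21 pooled ones, so whether this peak is assigned to daf-12 depends on the gene model. No other protein-coding gene had its body or start nearer to these summits than the Ensembl start of daf-12.

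The weaker daf-12 summit, at 10637708, differed between the replicates. It had a pooled signal of 290.4 (rank 180), with 131 in replicate 1 (rank 108) but 41.8 in replicate 2 (rank 3778). Replicate 2 had the higher raw signal at most reproducible entries, with a median ratio to replicate 1 of 2.15 and a range from the 5th to the 95th percentile of 1.25 to 4.22. Here the ratio was 0.319, and 0.108% of the 1857 reproducible entries with a region in both replicates had a lower one. Over the list medians the value was 7.21 ± 6.90 (SD, n = 2). The matched summits were not at the same base. They were at 10637691 in replicate 1 and 10637758 in replicate 2, or -17 and 50 bp from the pooled summit. The ratio thus compares signals at different positions, and the part of summit placement in it was not tested. The entry is in the reproducible list, and its rank was high in replicate 1 and not in replicate 2.

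The ratios at the other 4 reproducible entries were within that range. They were 1.84 at the stronger daf-12 summit, 1.92 at the internal start of din-1, and 1.76 and 2.40 at its upstream peaks. The lower summit at the internal start of din-1 resembled the weaker daf-12 summit, with a ratio of 0.463. In both cases it is the lesser of a pair of summits in 1 region, and 3.64% of the reproducible entries share their span with another summit.

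**Figure D2:**
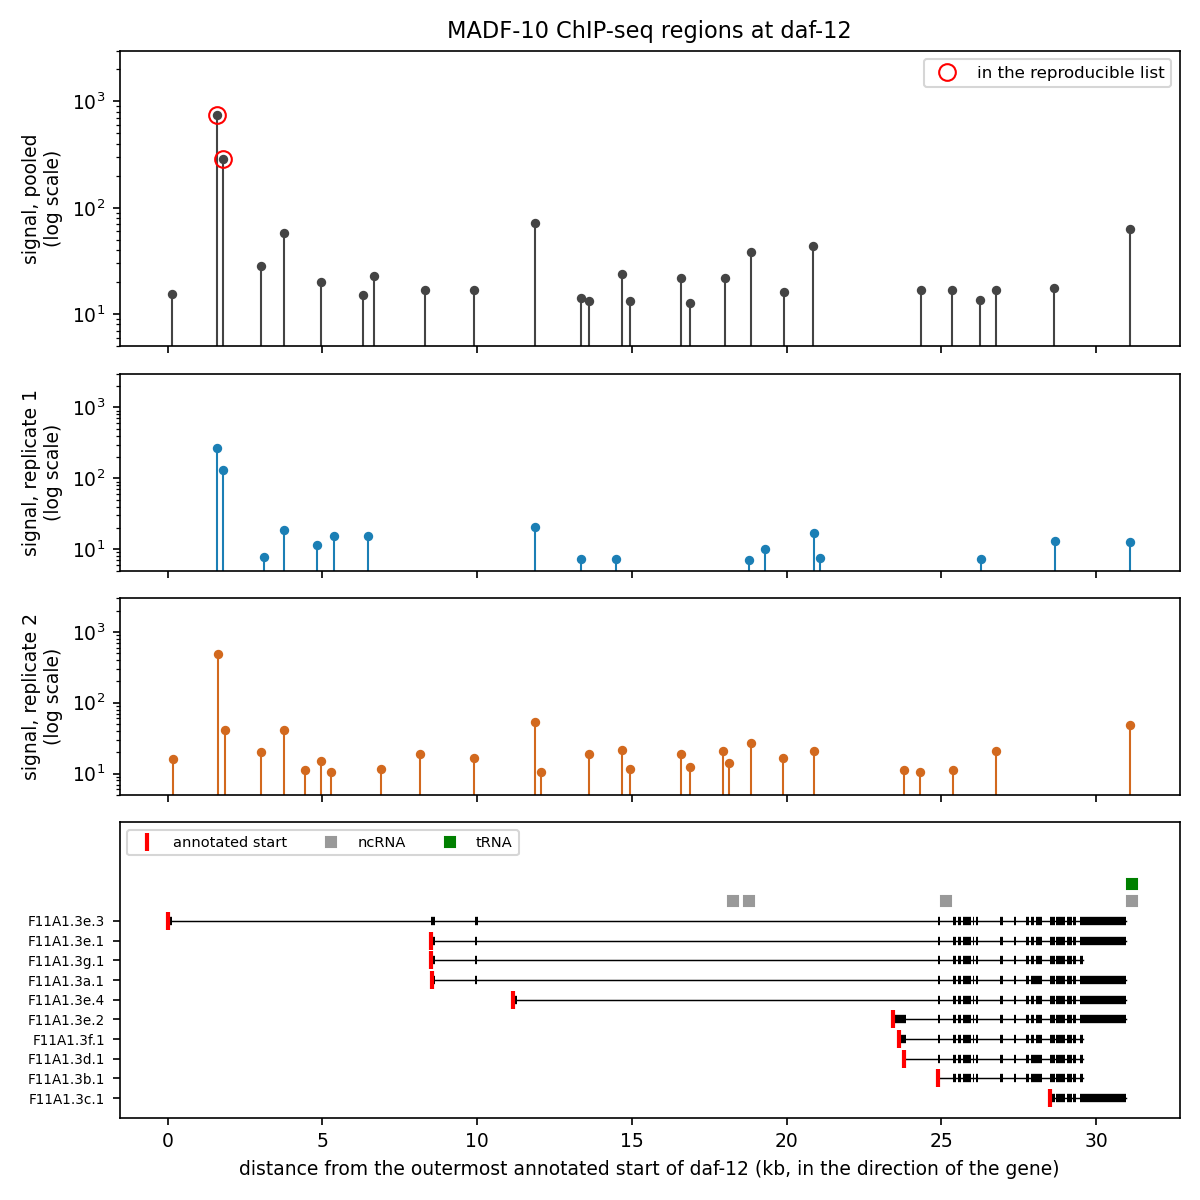
Signal of each region at daf-12 (log scale, one panel per list) against the distance of its summit from the outermost annotated start in kb, with exons as black boxes, annotated starts as red ticks and nearby non-coding genes as squares. The reproducible pair, circled in red, stands 1594 and 1800 bp into the gene, and the starts of the other 9 transcripts lie at least 8501 bp in.

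**Figure D3:**
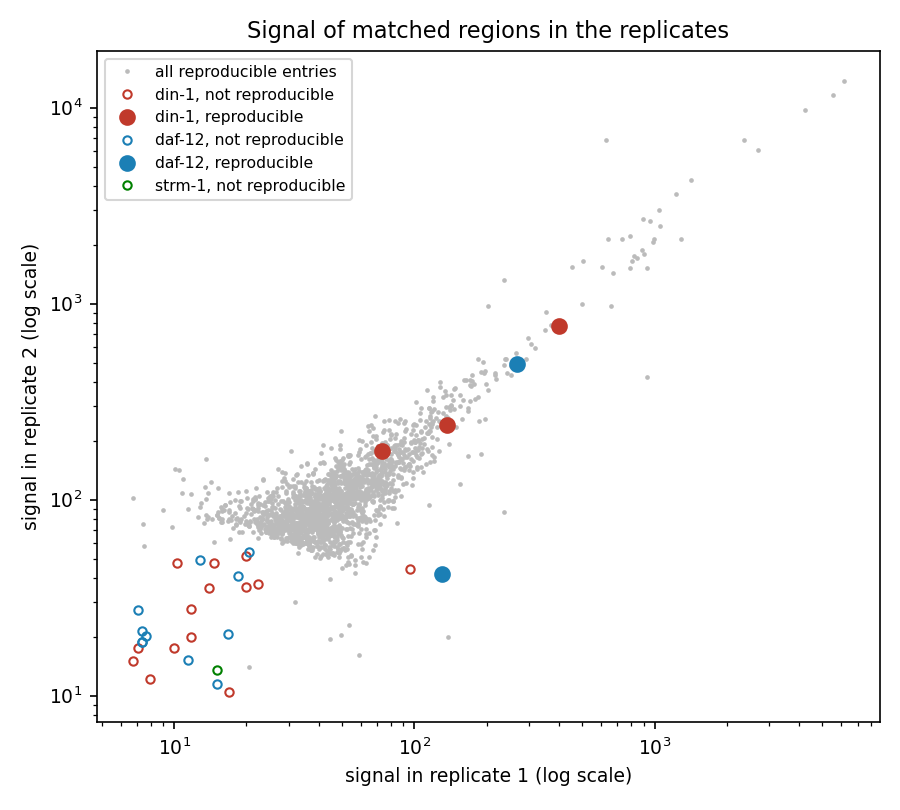
Signal in replicate 1 (horizontal, log scale) and replicate 2 (vertical, log scale) for all reproducible entries with a region in both replicates (grey) and for the entries at din-1, daf-12 and strm-1 (coloured). Filled points are reproducible entries, and the weaker daf-12 summit, at 131 and 41.8, lies below the band formed by the grey points.

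**Figure D4:**
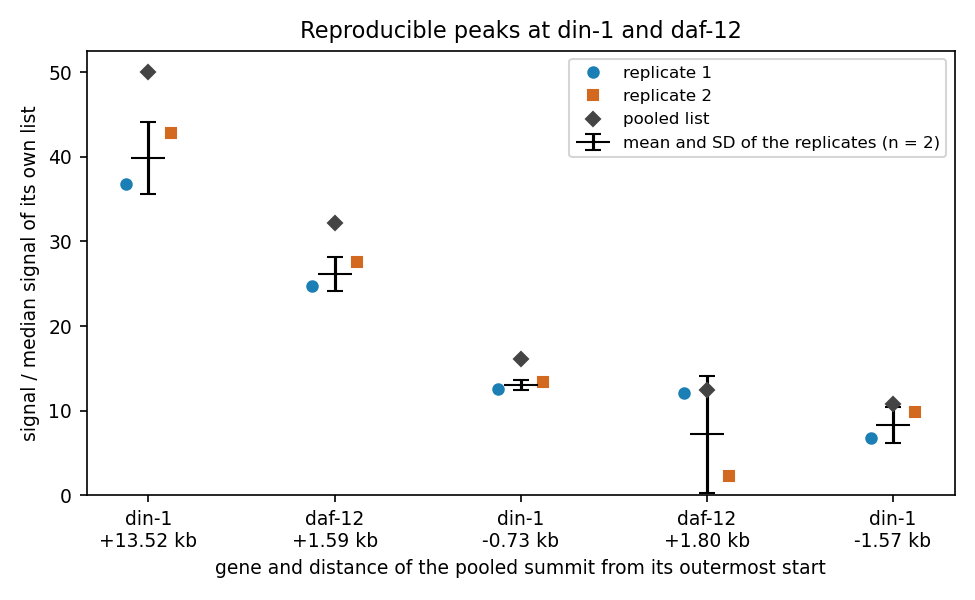
Signal divided by the median signal of its own list for the 5 reproducible entries at din-1 and daf-12, in each replicate and in the pooled list, with the mean and SD of the replicates (n = 2) as bars. The internal din-1 peak is highest with a mean of 39.8, and the SD is widest for the weaker daf-12 summit.

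Below these peaks, both genes held many weak entries of the pooled list, which by its label includes background. In the pooled list there were 27 entries at daf-12 and 25 at din-1, with 17 and 22 in replicate 1 and 28 and 26 in replicate 2. Per kb of window that is 0.819 at daf-12 and 1.2 at din-1, against 0.299 over the whole genome and a median of 0.282 for genes with windows of at least 20 kb. The median count for such genes was 8. At least as many pooled entries as at daf-12 were found at 17 genes and as many as at din-1 at 20 genes, each gene itself included.

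Most regions of daf-12, a gene made up largely of introns, were intronic. Of its 27 pooled entries 24 had their summit in an intron, 1 in a coding exon, 1 in an untranslated exon and 1 beyond the 3′ end. At din-1, 12 of 25 were intronic, 7 in coding exons, 3 in untranslated exons and 3 upstream. The median signal was 17.7 at daf-12 and 29.5 at din-1, and 9 of the daf-12 entries against 16 of those at din-1 were in the stronger 50% of the pooled list.

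After the reproducible pair, the highest entry at daf-12 had its summit at 10647781, 724 bp downstream of the start of F11A1.3e.4. It had a pooled signal of 72.3, with 20.6 in replicate 1 and 54.1 in replicate 2. The one after it, at 10666992, lay beyond the 3′ end with signals of 62.7, 12.8 and 49.2. It was 30 bp from a tRNA gene (WBGene00014321, 10667022 to 10667093, minus strand) and 20 bp from the ncRNA gene F11A1.11. At din-1, an entry with its summit at 11621725 had a pooled signal of 76.2 and lay in another intron of the gene, 1647 bp upstream of the internal start.

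The entries just outside the reproducible list were thus those of 77.9 and 76.2 at din-1 and 72.3 at daf-12, and the one just inside was the din-1 entry of 251. The authors' reproducible list for the older build ce10 reaches down to a signal of 69.6 and has 2878 entries. An entry of the same chromosome, width and signal was found in that list for each of the 3, so 8 entries at these genes would pass there in place of 5. No coordinates were carried over between builds.

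By an overlap of at least 1 bp, agreement between replicates over the 6 genes together was close to that of the whole list. Of the 53 pooled entries at the 6 genes, 31 (58.5%) overlapped a region in both replicates, against 55.9% of all pooled entries. The count was 13 of 27 at daf-12 (48.1%, below the whole list), 17 of 25 at din-1 (68%, above it) and 1 of 1 at strm-1. A region of a replicate could count for 2 neighbouring pooled entries. The 31 entries became 24 with at least 50% of the shorter region shared, and 21 with summits within 100 bp. The strm-1 entry met neither of these stricter matches. Shares of the whole list under the stricter matches are not given here, so closeness to it was not tested there.

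The ligand-making enzymes had no region in the 3 lists. At daf-9 (WBGene00000905, chromosome X, 6196927 to 6200823, plus strand), which encodes an enzyme of the last step of the synthesis, the nearest pooled region began 1054 bp from the gene and had a signal of 19.7. Replicate 1 had a region of signal 17.7 (rank 5309) that began 398 bp past daf-9. At daf-36 (WBGene00007536, chromosome V, 10223513 to 10225710, minus strand) the nearest pooled region was 9038 bp away with a signal of 18.4. At dhs-16 (WBGene00000979, chromosome V, 5983745 to 5985509, plus strand) it was 5992 bp away with 52.7, and replicate 1 had a region of signal 11.1 that began 35 bp past the gene.

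Genes without a region are common in these lists. A region was found at 55.7% of the protein-coding genes in the pooled list, at 61.2% in replicate 1 and at 58.8% in replicate 2, and 29.3% had none in any of the 3. The windows of these enzyme genes were 5.90 kb for daf-9, 4.198 kb for daf-36 and 3.77 kb for dhs-16, near the median of 4.03 kb over all genes. The lowest signal listed was 12.7 for the pooled regions, 6.72 for replicate 1 and 10.3 for replicate 2. Signal below these values would not appear in the lists, and an entry above them is not by itself evidence of occupancy.

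At strm-1 (WBGene00019198, chromosome III, 2402070 to 2406335, plus strand) there was 1 pooled entry. Its signal was 24.4 at rank 14003, and the nearest regions had 15.1 in replicate 1 and 13.5 in replicate 2. The replicate 1 region had its summit at 2406190, in a coding exon of strm-1. Replicate 2 had another region, with a signal of 21.0 and its summit at 2406230, in a coding exon as well. The pooled summit was 74 bp past the 3′ end of strm-1 and inside mrpl-30, a gene of a mitochondrial ribosomal protein that runs towards strm-1 on the opposite strand. The nearest reproducible peak was 122271 bp away.

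The share of G and C around each of the 5 reproducible summits was above the median of the pooled windows. The share was 65.3% at the stronger daf-12 summit and 50.5% at the weaker one. At din-1 it was 58.4% at the internal start, 48.5% at the nearer upstream peak and 57.4% at the farther one. The median over full windows was 48.5% for reproducible entries and 38.6% for pooled ones, so 1 of the 5 was at the reproducible median and 4 above it.

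Short words were searched on both strands of the full windows. AGTGCA, a half-site of the kind DAF-12 binds, was found in 1 of the 5 windows, that at the internal start of din-1, where it appears as tgcact at the end of the printed run. It was present in 4.98% of all reproducible and 3.91% of all pooled windows. TGTGTG was in the nearer upstream din-1 window (14.2% of reproducible windows), GAGAGA at the internal start of din-1 (22.9%) and TTTCAG at the stronger daf-12 summit (6.96%). CACGTG and GCGCGC were in none of the 5, with shares of 4.44% and 7.44%. GTTCGA, the core of the B box within tRNA genes and a word added after the data were seen, was at the internal start of din-1 as well, and in 10.6% of reproducible windows.

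Words were also compared between the 5 windows, a comparison made after the data were seen. No word of 8 bases was shared by 3 or more of them, and 8 such words were shared by 2. Of these, 5 overlap in a single run of 12 bases, cggcggcagcga, which the window of the stronger daf-12 summit and that at the internal start of din-1 have in common and which can be read in both printed sequences. Of the 1869 reproducible windows, 2 hold this run, namely these same windows, in which it was found. How often other pairs of reproducible windows share any run of this length was not tested. The longest run shared by any other pair of the 5 windows was 8 bases. The windows were compared because they belong to these genes, so the shared run is a description. A match is a description of the letters and not a binding site.

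Genes that act around the receptor were looked at under the same rule. Among 24 genes of steroid supply and related receptors 7 had a reproducible peak, a share of 29.2% beside 10.5% of all protein-coding genes. The strongest signals there were 191 at the yolk protein gene vit-6, 181 at the nuclear receptor gene nhr-48, 162 at the steroid dehydrogenase gene stdh-1, 159.5 at emb-8, which encodes the cytochrome P450 reductase, and 138 at vit-5. At vit-6, emb-8 and vit-5 the summit lay past the 3′ end, by 103, 74 and 138 bp. All of these were lower than the 3 din-1 peaks and both daf-12 summits.

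In the signalling branches that act upstream of the ligand, peaks stood at a few genes each, and the shares are again to be read beside 10.5% of all genes and 24.0% of those with windows of at least 20 kb. Of 7 dauer TGF-beta genes 2 had one, with a signal of 381 in an intron of daf-5, which encodes a SNO/SKI relative, and 153 at the SMAD gene daf-14. Of 11 insulin pathway genes 2 had one, with 119 at daf-16, the FOXO factor, and 108 at the kinase gene pdk-1. The daf-16 summit lay within 200 bp of the ncRNA gene R13H8.5. The windows of daf-5 and daf-16 are 21.1 and 28.2 kb long. Of 13 sensory and cilia genes 3 had one. They were che-13 (503), an intraflagellar transport gene whose peak lay within 200 bp of the snoRNA gene F59C6.15, the chaperone gene hsp-90 (337) and daf-19 (94.6), the RFX factor of cilia genes.

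Among the heterochronic genes, which time larval stages and several of which act downstream of DAF-12, 6 of the 7 protein-coding genes listed had a reproducible peak, where the share of all genes was 10.5% and that of genes with windows of at least 20 kb, such as lin-14 and lin-42, was 24.0%. The 5 highest signals were 1492 in an intron of lin-14, 132 at lin-28, 122 at lin-42, 105 at lin-41 and 103 at lin-46. At lin-14 the summit ranked 31, 30 and 30 in the pooled list and the replicates, and it too lay deep inside the gene, 7114 bp upstream of the nearest annotated start. It was within 200 bp of the ncRNA gene T25C12.6, and the lin-42 summit within 200 bp of the ncRNA genes F47F6.13 and F47F6.15. Of all reproducible entries 22.9% lay that near to an ncRNA gene. The 5 small RNA genes of this list were not analysed here. Of 13 other corepressor genes 3 had a peak (23.1%, beside 10.5% of all genes), with 335.5 at lin-53, 276 at unc-37, the Groucho homologue, and 179 at mep-1. These lists were drawn up with results of these data known, and no test was made on them.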

How the data were processed

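The deposited narrowPeak lists of 2 biological replicates were used on build ce11. As the deposited readme files state, a replicate's list was made from its alignments and a control, the pooled list from both replicates, and the reproducible list by an irreproducible discovery rate threshold. The signal in column 7 is the authors' value for each region. The sources used here do not give peak caller, settings, threshold or depth, and the control was not analysed here. Regions were counted over gene spans of Ensembl release 115 (WBcel235, the assembly of ce11) plus 2000 bp upstream. Pooled entries were matched to the overlapping replicate region with the nearest summit. The ce10 lists served for 1 comparison of thresholds, without conversion of coordinates. Counting of summits in gene windows was tested on simulated regions, and counting by overlap was not. Python 3.11.15, pandas 2.3.3 and matplotlib 3.10.9 were used. The members, gene lists and sequence words were chosen with earlier results of these data known. The named genes are the 6 members and, of each other list, up to 5 genes with a reproducible peak, by signal. The alternatives were another upstream reach, summits in place of overlaps, stronger entries only, a stricter match between replicates, each replicate alone, and 2 added after seeing the data, RefSeq spans and the ce10 threshold.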

Additional observations from a re-analysis of the deposited data

How the results depend on the processing

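The count of genes with a reproducible peak was 2 with another upstream reach, with summits in place of overlaps and in the stronger 50% of the list, and 1 with RefSeq spans, a setting chosen after seeing the data, since the peak then lies outside daf-12. The reproducible list is made from both replicates and was not made again from 1, so its dependence on a replicate was not tested. Among the 1869 strongest entries of each replicate's own list, 2 of the genes had one. The 53 pooled entries became 26 in the stronger 50% of the pooled list, and ranged from 40 to 56 with either replicate alone. The summit of the strongest din-1 region was at -8 bp from the nearest start in the pooled list and between -2 and 1 bp with either replicate left out, so its side of the start is not settled at this resolution. Measured from the outermost start it was at 13523 bp. With the ce10 threshold, also chosen after seeing the data, 8 entries passed in place of 5. Depth is unknown, and with 2 replicates an SD is itself imprecise. No paired analysis was possible because there was 1 group.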
